A study of Saccharomyces cerevisiae with 24 samples.

Results

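Transfer RNA (tRNA) features are the rows of the count table named by a lower-case t, an amino acid letter and an anticodon in brackets, such as tF(GAA)H1. They made up 299 of the 7032 rows, 275 for nuclear and 24 for mitochondrial genes, and all were kept. The study followed wild-type diploid budding yeast (Saccharomyces cerevisiae, strain BY4743) through the cell cycle by cell size. G1 cells were isolated by centrifugal elutriation, grown in rich YPD medium at 30 °C to a chosen size, stopped with cycloheximide and azide, frozen, and pooled with cultures of similar size. Total RNA was extracted with hot phenol, ribosomal RNA was depleted without selecting poly(A) tails, and 24 libraries were sequenced. They form 8 groups of 3 biological pools, at 40, 45, 50, 55, 60, 65, 70 and 75 fL, with the pool of 67.5 fL placed in the 70 fL group. Every group shares the strain, medium and handling, so size and progress through the cycle move together and cannot be told apart.

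Nuclear tRNA genes are transcribed by RNA polymerase III from promoters inside the gene, bound first by the factor TFIIIC, which places TFIIIB upstream. The precursors are trimmed at both ends, spliced where they hold an intron, modified at many bases, given a CCA tail and charged with an amino acid by a synthetase. Yeast carries many near-identical copies of most tRNA genes scattered over its chromosomes, whereas the mitochondrial genome encodes a separate set with mostly 1 gene for each tRNA. In yeast, Maf1 represses RNA polymerase III when growth conditions worsen.

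The sequences below show why rows of one anticodon cannot be treated as separate measurements. They are mature tRNA sequences from the RefSeq R64 genome, written as DNA from 5′ to 3′ with introns removed and without the CCA tail, and capitals mark the anticodon. The first 5 belong to nuclear families whose sums or single rows carry the results, and the last 2 to mitochondrial genes on the list of tested rows.
Histidine tH(GUG): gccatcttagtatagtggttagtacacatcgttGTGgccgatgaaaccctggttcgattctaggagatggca
Phenylalanine tF(GAA): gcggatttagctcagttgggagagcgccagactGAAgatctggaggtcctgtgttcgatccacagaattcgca
Alanine tA(AGC): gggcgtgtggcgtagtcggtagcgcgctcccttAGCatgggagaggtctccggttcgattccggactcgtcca
Lysine tK(CUU): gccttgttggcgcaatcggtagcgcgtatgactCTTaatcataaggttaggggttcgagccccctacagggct
Lysine tK(UUU): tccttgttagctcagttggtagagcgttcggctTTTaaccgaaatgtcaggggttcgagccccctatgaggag
Mitochondrial threonine tT(UAG)Q2: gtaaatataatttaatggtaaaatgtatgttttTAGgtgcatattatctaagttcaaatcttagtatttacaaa
Mitochondrial phenylalanine tF(GAA)Q: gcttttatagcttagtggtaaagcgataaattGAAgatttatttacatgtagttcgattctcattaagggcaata
All 7 annotated histidine loci hold the tH(GUG) sequence, all 11 tA(AGC) loci hold the tA(AGC) sequence, and all 14 tK(CUU) loci hold the tK(CUU) sequence. The tF(GAA) sequence shown is that of 8 of the 10 phenylalanine loci. The lysine sequences for the anticodons CUU and UUU match at 53 of 73 aligned positions (72.6%), and nuclear tF(GAA) matches mitochondrial tF(GAA)Q at 48 of 78 (61.5%).

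Over all 275 annotated nuclear loci there were 56 distinct mature sequences, and 254 loci shared theirs with another locus. Of the nuclear loci, 269 held at least one 31-base word found elsewhere in the genome, and in 242 every such word was repeated. By the same measure none of the 24 mitochondrial loci held a repeated word. A 31-base stretch within a nuclear tRNA gene therefore usually matches several places in the genome. Longer reads and reads that cross the end of a gene were not examined. How reads with several matches were assigned is not given in the sources used here. Sums by amino acid do not depend on how reads were split between copies of one family, but they do depend on whether reads that match several places were counted at all. Row names could be tied to a single RefSeq locus for 176 rows, to several candidate loci for 120, and to none for 3. Counts of a row do not tell mature tRNA, precursors and transcripts that run through the gene apart.

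tRNA rows held very few counts. Library totals ran from 16103753 to 24408547 counts, of which nuclear tRNA rows took 0.00467% to 0.0172%. Over the 24 libraries the 299 rows held 36450 counts, 35135 of them in nuclear and 1315 in mitochondrial rows. The median row had 49 counts over all libraries, or 2.04 per library, and 26 rows had a mean of at least 10 counts. In 11 nuclear rows no library had a count, which at the lowest depth allows up to 0.186 counts per 1000000 counts of the library (CPM), a limit that covers counting error only. As checks of the strain and the time course, URA3 and LEU2, which BY4743 lacks, had 0 counts in every library. The G1 cyclin CLN2 peaked at 60 fL (301 ± 24.7 CPM, SD, n = 3), and the mitotic cyclin CLB2 went from 6.18 ± 1.38 CPM at 40 fL to 217 ± 21.2 CPM at 75 fL.

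Counts were concentrated in a few rows. The histidine row tH(GUG)G2 alone held 6464 counts, 18.4% of all nuclear tRNA counts, while the next histidine row held 487 and the lowest 10, although the mature sequences of the family are identical. The proline row tP(AGG)C held 1606 counts and its only sister row 100. The lysine row tK(CUU)E1 held 1408 and the next of its 14 rows 112. Together the 10 highest rows held 41.0% of the nuclear counts. The others of the 10 were tK(UUU)O (971 counts), tW(CCA)P (843), tI(UAU)D (792), tD(GUC)N (746), tW(CCA)G1 (573), tF(GAA)P1 (513) and tD(GUC)G2 (495).

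**Figure D1:**
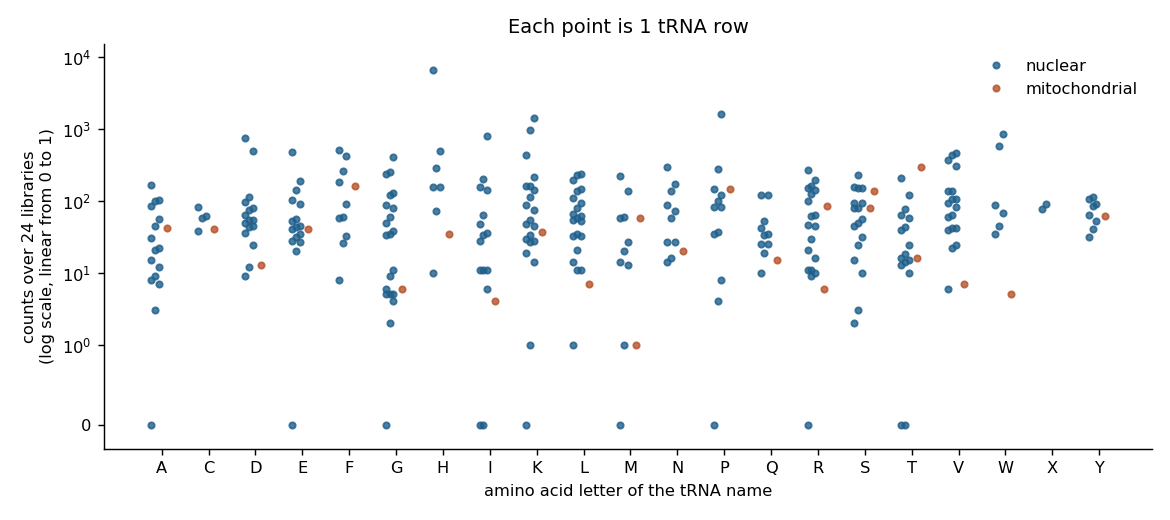
Counts of each tRNA row over the 24 libraries (vertical axis, log scale that is linear from 0 to 1) by the amino acid letter of its name (horizontal axis), with nuclear rows in blue and mitochondrial rows in orange. The histidine row at 6464 counts stands above all others, and 11 nuclear rows lie at 0.

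Of the rows above, tP(AGG)C lies at chrIII:123577-123648 on the minus strand, 574 bases from the nearest annotated gene, YCR006C. The intron-containing lysine gene tK(UUU)O lies at chrXV:438643-438738 on the plus strand, 168 bases from LPL1, which encodes a phospholipase. The row tW(CCA)P, also with an intron, lies at chrXVI:56169-56274 on the minus strand, 474 bases from YPL257W-B, a Ty1 retrotransposon gene. The row tI(UAU)D lies at chrIV:884361-884493 on the plus strand, and tD(GUC)N at chrXIV:519099-519169 on the minus strand. The row tH(GUG)G2 had a pair of candidate loci, chrVII:110625-110696 (minus strand), 221 bases from POX1, and chrVII:319781-319852 (plus strand), 1702 bases from USE1. The row tK(CUU)E1 likewise had chrV:135425-135497, 191 bases from GLC3, and chrV:435752-435824, 1443 bases from YER134C, both on the minus strand.

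Nuclear tRNA counts were highest in the smallest cells. CPM below are scaled with TMM factors, edgeR's trimmed-mean adjustment of library size. At 40 fL the 3 libraries had 4201, 2710 and 2865 nuclear tRNA counts, or 147, 113 and 122 CPM. At 45 fL they had 78.7, 90.0 and 87.9 CPM, and at 50 fL 53.1, 72.1 and 55.4 CPM. Every 40 fL library stood above every library of the other sizes. At 55 fL the values were 104.9, 61.0 and 99.8 CPM, so that replicates 1 and 3 lay above all 45 fL libraries and replicate 2 among the 50 fL ones. From 60 fL on, group means stayed between 53.7 ± 4.34 CPM (70 fL, SD, n = 3) and 70.1 ± 6.39 CPM (75 fL), against 127 ± 17.6 CPM at 40 fL. The ratio of the 75 to the 40 fL mean was -0.86 on the log2 scale. With library totals alone in place of TMM it was -1.14, while the median of all genes tested moved from -0.01 to -0.28.

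**Figure D2:**
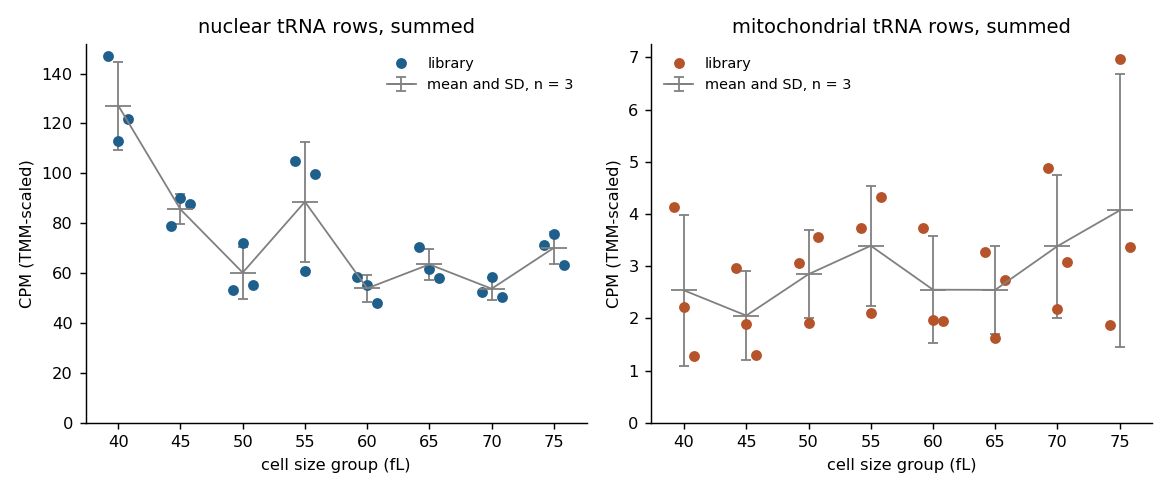
Summed CPM of nuclear tRNA rows (left) and mitochondrial tRNA rows (right) against cell size group in fL, with 1 point for each library and the mean and SD of 3 libraries in grey. Nuclear values are highest at 40 fL (113 to 147 CPM) and spread most at 55 fL, and mitochondrial values overlap between all sizes.

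The fall was shared by most amino acids. Counts were summed by amino acid letter, separately for nuclear and mitochondrial rows, and tested with edgeR's quasi-likelihood test in a fit over all genes, with Benjamini-Hochberg adjustment over 6368 rows. All 21 nuclear sums could be tested, including one for the 2 rows of undetermined identity. At 75 against 40 fL, 15 of 21 nuclear sums fell at an adjusted p under 0.05 and 0 rose, where 30.3% of all rows tested fell and 31.1% rose. The 0 that rose was also 0 at an unadjusted p under 0.05 and with DESeq2. The median change of the 21 sums was -0.97 (log2), with a range of -1.84 to 0.03, beside a median of -0.01 over all rows tested. In 15 sums every 75 fL library lay below every 40 fL library, as it did in 36.8% of all rows. Without the libraries set apart in an earlier analysis (listed under the processing), 14 sums fell and tyrosine did not pass.

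Methionine, which includes the initiator tRNA, had the largest fall. Its sum was 2.66, 2.58 and 1.87 CPM in the 40 fL libraries and 1.02, 0.536 and 0.428 CPM at 75 fL, a log2 change of -1.84 (SE 0.42, adjusted p = 0.00113). Phenylalanine, whose 10 nuclear genes all hold an intron, had 8.74, 7.75 and 8.62 CPM at 40 fL and 2.84, 2.79 and 2.09 CPM at 75 fL. Its log2 change was -1.70 (SE 0.30, adjusted p = 0.000128), and the groups were far apart. Alanine had 2.73, 2.50 and 3.31 CPM at 40 fL against 0.803, 0.857 and 1.12 CPM at 75 fL. Its change was -1.61 (SE 0.24, adjusted p = 2.0e-05), also with no overlap. Alanine was near its later level by 60 fL (0.841 ± 0.226 CPM, SD, n = 3), after 2.20 ± 0.0289 CPM at 45 fL and 1.36 ± 0.388 CPM at 50 fL.

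Leucine and arginine gave the smallest adjusted p beside alanine. The leucine sum, 21 rows for 4 anticodons, was 6.78, 6.08 and 6.79 CPM at 40 fL and 2.52, 3.43 and 2.67 CPM at 75 fL, a log2 change of -1.19 (SE 0.18, adjusted p = 1.97e-05). Arginine went from 4.86, 5.42 and 5.60 CPM to 2.25, 2.68 and 2.03 CPM, a change of -1.19 (SE 0.18, adjusted p = 2.85e-05). Their SEs were among the smallest of all sums. Aspartate (-1.25), glutamate (-1.20), glycine (-1.11), histidine (-1.10), glutamine (-1.07), asparagine (-0.97), serine (-0.83), isoleucine (-0.83), valine (-0.77) and tyrosine (-0.73) also fell on the log2 scale. Isoleucine, asparagine and tyrosine lost their calls when some single libraries at 40 or 75 fL were left out, with adjusted p up to 0.0646, 0.0764 and 0.162.

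Lysine, proline, tryptophan, threonine, cysteine and the undetermined pair did not pass the test at 75 against 40 fL. Lysine was 12.8, 9.50 and 10.1 CPM at 40 fL and 11.0, 12.7 and 9.36 CPM at 75 fL, so that the groups overlapped (0.03, SE 0.22, adjusted p = 0.929). Proline was 6.36, 5.75 and 6.62 CPM against 4.76, 6.75 and 5.99 CPM (-0.10, SE 0.15, adjusted p = 0.584). Tryptophan was 6.12, 3.75 and 4.20 CPM against 3.10, 4.98 and 3.64 CPM (-0.27, SE 0.24, adjusted p = 0.341). All of these overlapped between the groups. With library totals alone the direction of lysine turned, to -0.25.

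Most of the difference was present by 50 fL. At 50 against 40 fL, 16 of 21 nuclear sums fell and 0 rose, where 24.3% of all rows fell and 32.9% rose, and their median change was -1.06 beside 0.06 for all rows. In 18 sums every 50 fL library lay below every 40 fL library, as it did in 23.8% of all rows. The 16 were those that fell by 75 fL plus threonine, the sum for which was 2.94, 1.75 and 2.04 CPM at 40 fL and 1.11, 1.63 and 0.842 CPM at 50 fL (-0.91, SE 0.26, adjusted p = 0.00754). Both contrasts use the same 40 fL libraries, so they are not separate evidence. Cysteine was the 1 sum with every 50 fL library above every 40 fL library, going from 0.559, 0.292 and 0.509 CPM to 0.723, 0.756 and 1.04 CPM, without passing the test (0.85, SE 0.38, adjusted p = 0.0641). It passed as a rise when the libraries set apart were left out.

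Between the larger sizes no sum passed the edgeR test. At 60 against 50 fL 0 of 24 tested sums passed, where 6.23% of all rows fell and 4.07% rose. An unadjusted p under 0.05 was reached by 2, alanine and phenylalanine, and DESeq2 called 0. At 75 against 60 fL 0 passed as well, where 1.99% of all rows rose and 2.03% fell. An unadjusted p under 0.05 was reached by 4, and DESeq2 called 0. Those 4 were threonine (0.91), tyrosine (0.81), phenylalanine (0.77) and cysteine (-0.93), as log2 changes. The median nuclear sum changed by 0.30 from 60 to 75 fL, and 3 of 21 were below 0. Without the libraries set apart 3 sums passed at 75 against 60 fL, all as rises. Over all 8 sizes together 17 of 21 nuclear sums passed, where 79.8% of all rows did. The mean was highest at 40 fL in 18 of 21 sums.

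**Figure D3:**
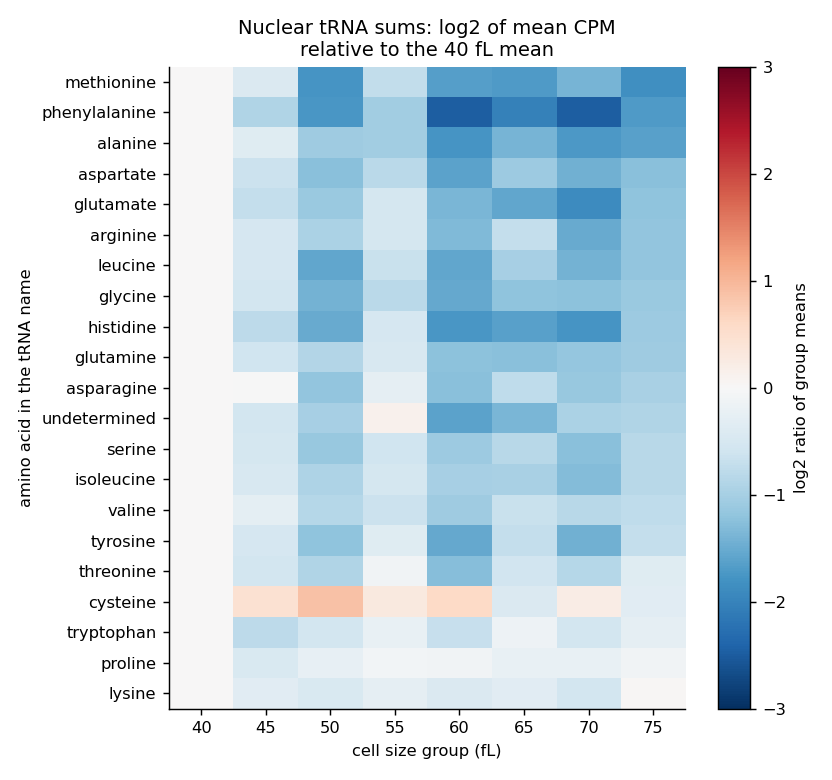
Log2 ratio of the mean CPM at each cell size in fL (columns) to the mean at 40 fL for the 21 nuclear tRNA sums (rows, by amino acid), blue for lower and red for higher. Most rows are darker at 50 and at 60 to 75 fL than at 45 and 55 fL, and cysteine is red at 50 fL (0.85 in the edgeR fit).

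The 10 highest rows shaped the sums of lysine, proline, tryptophan and histidine. When those 10 rows were left out, a choice made after seeing the data, 18 of 21 nuclear sums fell at 75 against 40 fL. Lysine then fell by 0.74 on the log2 scale (adjusted p = 0.0274), proline by 0.84 (adjusted p = 0.0109) and tryptophan by 1.58 (adjusted p = 0.0127). Isoleucine, without tI(UAU)D, fell by 1.52. Histidine without tH(GUG)G2 fell by 1.75 (adjusted p = 0.000123) instead of 1.10. The remaining nuclear total changed by -1.12 (log2 ratio of means), against -0.50 for the 10 highest rows together.

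**Figure D4:**
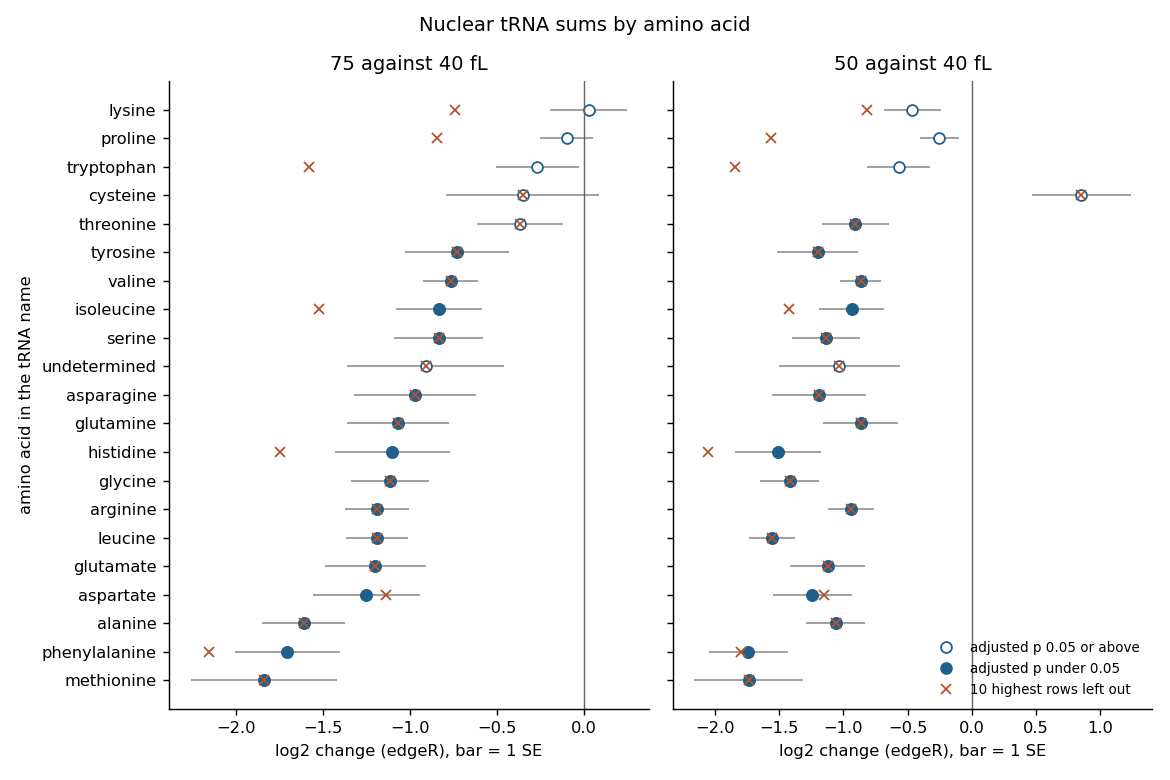
Log2 change of the 21 nuclear tRNA sums from edgeR at 75 against 40 fL (left) and 50 against 40 fL (right), with 1 SE as bars, filled points for an adjusted p under 0.05 and orange crosses for the fit without the 10 highest rows. Lysine, proline and tryptophan lie near 0 with all rows and at -0.74, -0.84 and -1.58 without those rows at 75 against 40 fL.

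The histidine sum shows how one row and a pair of libraries can set a value. tH(GUG)G2 had 976, 510 and 563 counts at 40 fL, 167, 221 and 118 at 50 fL, 446, 103 and 421 at 55 fL, and 305, 223 and 217 at 75 fL. In CPM it had 34.1, 21.3 and 23.9 at 40 fL, 9.29, 12.9 and 7.64 at 50 fL, and 26.0, 6.59 and 25.0 at 55 fL. At 55 fL, replicate 2 thus lay below every 50 fL library, and replicates 1 and 3 above replicates 2 and 3 of 40 fL. The change of tH(GUG)G2 at 75 against 40 fL was -0.99 (SE 0.34, adjusted p = 0.0181). The call was lost when replicate 1 at 40 fL, or replicate 2 or 3 at 75 fL, was left out. The nuclear total without this row still went from 100.7 ± 10.9 to 56.8 ± 6.34 CPM (SD, n = 3).

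Only 58 of the 299 rows had enough counts to be tested singly, 55 nuclear and 3 mitochondrial, and 241 were not tested. Of the 58, 9 reached the count floor only through the 40 fL libraries, where nuclear tRNA counts were highest. At 75 against 40 fL, 30 rows fell and 2 rose, where 30.2% of the 6402 rows tested fell and 31% rose. Among the other 49 rows, 22 fell. Some of these may still have needed a 40 fL library to reach the floor. Over the 8 sizes 30 rows passed, beside 79.6% of all rows. Without any test or filter, mean CPM was lower at 75 than at 40 fL in 226 nuclear rows, higher in 34, and 0 at both in 15.

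The largest falls among rows that passed over the 8 sizes ended with 11 counts or fewer in each 75 fL library, so their folds are imprecise. For the rows other than tF(GAA)H1, whether they reached the count floor only through the 40 fL libraries is not shown here. tF(GAA)H1 had 82, 80 and 56 counts at 40 fL, 32, 19 and 44 at 45 fL, 2, 30 and 2 at 50 fL, and 4, 4 and 3 at 75 fL. Its log2 change at 75 against 40 fL was -3.82 (SE 0.74, adjusted p = 0.00028), and the value of 30 came from 50 fL replicate 2. tI(AAU)P1 had 39, 30 and 14 counts at 40 fL and 3, 3 and 1 at 75 fL (-3.04, SE 0.71). The histidine row tH(GUG)E1 had 80, 63 and 54 counts against 6, 6 and 7 (-2.90, SE 0.63). The aspartate row tD(GUC)G2 had 79, 66 and 61 against 7, 11 and 4 (-2.76, SE 0.48). tF(GAA)M, at chrXIII:352280-352370 and 233 bases from ARG80, had 30, 23 and 38 against 4, 8 and 5 (-1.96, SE 0.49). In each of these rows no 75 fL library reached a 40 fL library, but they were picked for their falls between these groups. Over all rows of the table with tRNA sums, 36.8% had every 75 fL library below every 40 fL library.

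The nuclear row that rose was tK(CUU)E1, with 82, 37 and 63 counts at 40 fL and 92, 113 and 79 at 75 fL. In CPM the groups did not overlap (2.36 ± 0.716 against 5.07 ± 0.922, SD, n = 3), for a log2 change of 1.09 (SE 0.31, adjusted p = 0.00596). It did not pass over the 8 sizes (adjusted p = 0.0687), nor with limma on the deposited TPM. tP(AGG)C had 87, 56 and 70 counts against 54, 81 and 84 (0.49, SE 0.22, adjusted p = 0.0634). tW(CCA)G1, the only row with a positive change among those that passed over the 8 sizes, had 62, 31 and 28 counts at 40 fL, 12, 10 and 25 at 50 fL, and 30, 41 and 31 at 75 fL. Its change at 75 against 40 fL did not pass (0.22, adjusted p = 0.553).

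By anticodon, 34 of 41 nuclear families had a lower mean CPM at 75 than at 40 fL, 6 had a higher one, and tE(CUC), with 20 counts in all, had none at 75 fL. The families with the lowest ratio (log2 of the means) were tA(AGC) (-2.36, 11 rows), tI(AAU) (-2.17, 13 rows) and tM(CAU) (-1.84, 10 rows). Families for 1 amino acid could differ, since isoleucine tI(UAU) stood at -0.15 and valine tV(UAC) at -1.62 beside tV(AAC) at -0.57. The 6 higher families were tT(CGU) (1.62, 10 counts in all), tS(CGA) (0.76), tT(UGU) (0.74), tK(CUU) (0.44), tP(AGG) (0.31) and tL(UAG) (0.15). These ratios carry no test, and 4 of the 6 rest on 232 counts or fewer.

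Sums were lower at 75 fL both for genes with an intron and for the others. The 59 nuclear rows known to hold an intron summed to 33.1 ± 4.90 CPM at 40 fL and 19.4 ± 3.04 CPM at 75 fL (SD, n = 3), and the 213 rows without one to 92.9 ± 12.8 and 49.9 ± 3.33 CPM. The log2 ratios were -0.77 and -0.90, a difference that was not tested.

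Neighbouring genes were compared as well, since counts of a row do not show which transcript a read came from. Of the nuclear loci, 87 lay within 200 bases of a coding gene and 5 overlapped a gene. For 28 tested rows placed at 1 locus with a tested nearest gene, at a median distance of 231.5 bases, 12 changed in the same direction as that gene at 75 against 40 fL. Of the 11 such rows that fell, the nearest gene fell in 3 and rose in 3, beside 30.2% and 31% of all rows. Rows with several candidate loci were left out, among them the following with large falls. The genes nearest their candidates were PCL5 (-1.69) and NDT80 (-1.01) for tF(GAA)H1, and NOC4 (-1.02) and JIP5 (-0.70) for tI(AAU)P1. They were CHO1 (-1.53) and GLC7 (0.01) for tH(GUG)E1, and THG1 (-0.58) and ERV1 (0.10) for tD(GUC)G2. All but GLC7 and ERV1 passed. Any link was not tested. A further fit left out unplaced rows and rows with any candidate locus within 200 bases of a coding gene, which kept 155 of 275 nuclear rows. Some rows left out may therefore not lie near a coding gene. In that fit 11 of 19 testable nuclear sums fell, and glycine, isoleucine, serine, valine and tyrosine no longer passed. Lysine without those rows fell by 0.82 (adjusted p = 0.0400). Only 5 nuclear rows, with 256 counts in all, had no repeated 31-base word: for glycine tG(CCC)D along with tG(CCC)O, for arginine tR(CCG)L along with tR(CCU)J, and for threonine tT(CGU)K. Their summed CPM changed by -1.07 (log2 ratio of the 75 to the 40 fL mean). The largest of them, tR(CCG)L at chrXII:818609-818680, had 9, 9 and 10 counts at 40 fL and 1, 6 and 1 at 75 fL.

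No mitochondrial tRNA sum passed the test as a fall. Their sum was 4.13, 2.21 and 1.27 CPM at 40 fL and 1.87, 6.96 and 3.37 CPM at 75 fL, so that the groups overlapped. Group means ran from 2.05 ± 0.849 CPM at 45 fL to 4.07 ± 2.62 CPM at 75 fL (SD, n = 3), and the ratio of the 75 to the 40 fL mean was 0.68 (log2), or 0.05 without 75 fL replicate 2. Only the sums of phenylalanine, serine and threonine could be tested, and 17 others held too few counts. Over the 8 sizes 0 of the 3 passed in edgeR, 0 had an unadjusted p under 0.05, and DESeq2 called 0 mitochondrial sums.

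At 75 against 40 fL the mitochondrial threonine sum passed as a rise. It had 0.559, 0.333 and 0.170 CPM at 40 fL and 0.321, 2.04 and 1.02 CPM at 75 fL, so that the groups overlapped although the log2 change was 1.61 (SE 0.60, adjusted p = 0.0274). The call was lost without 40 fL replicate 2, 40 fL replicate 3 or 75 fL replicate 2, with library totals alone and with limma on TPM. The row behind it, tT(UAG)Q2 at chrMT:78089-78162, held 15, 4 and 4 counts at 40 fL and 6, 38 and 18 at 75 fL (1.87, SE 0.63, adjusted p = 0.0157). Phenylalanine changed by 0.84 (adjusted p = 0.292) and serine by -0.02 (adjusted p = 0.976). Without the libraries set apart, mitochondrial phenylalanine passed as a rise in edgeR (1.80, adjusted p = 0.0466). Whether nuclear and mitochondrial tRNA changed differently was not tested.

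The other mitochondrially encoded RNAs gave 4 rises and 0 falls among 11 tested at 75 against 40 fL, where 31% of all rows rose and 30.2% fell. COX1, for a cytochrome oxidase subunit, rose by 0.33 (log2), COB, for cytochrome b, by 0.57, and the ATP synthase genes ATP8 and OLI1 by 1.56 and 0.60. COX2 (0.37), COX3 (0.18), ATP6 (0.43), VAR1 (0.97), RPM1, the RNA of mitochondrial RNase P (1.39), and the ribosomal RNAs 15S_RRNA (-0.23) and 21S_RRNA (-0.22) did not pass. With library totals alone 0 rose and 1 fell, and leaving out single libraries gave 0 to 6 rises, with 0 without 75 fL replicate 2 and 2 without 40 fL replicate 1 or 3.

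Genes of the tRNA pathway were taken from 10 lists chosen with earlier results of these data known. Of 17 RNA polymerase III subunits, 12 fell and 0 rose at 75 against 40 fL, where 30.2% of all rows fell and 31% rose. At 50 against 40 fL 17 fell and 0 rose, where 24.2% of all rows fell and 32.8% rose, but 10 fell without 50 fL replicate 1. The median change at 75 against 40 fL was -0.67, beside -0.01 for all genes. RPC53 went from 102 ± 10.3 to 43.3 ± 3.86 CPM (SD, n = 3; log2 change -1.24, adjusted p = 0.00171), RET1, the second largest subunit, from 480 ± 23.3 to 253 ± 37.2 CPM (-0.92), RPC37 from 75.5 ± 2.12 to 43.1 ± 4.52 CPM (-0.81) and RPC10 from 54.7 ± 3.37 to 34.3 ± 2.57 CPM (-0.67).

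At 50 and 55 fL, replicate 2 stood apart from the other replicates for these subunits, as it did for nuclear tRNA. At both sizes it was among the libraries set apart in an earlier analysis. The mean log2 change of the subunits from the 40 fL mean was -1.24, -0.27 and -1.07 in the 50 fL libraries, and -0.14, -0.93 and -0.31 at 55 fL. Replicate 2 was the highest of its group for both measures at 50 fL and the lowest for both at 55 fL. Genes for tRNA base modification (below) had the same order, with -0.98, -0.16 and -0.87 at 50 fL and -0.07, -0.75 and -0.19 at 55 fL. That order also held for tRNA end processing, splicing and transport, turnover and the cytosolic synthetases. It did not hold for initiation factors, other RNA polymerase III transcripts, mitochondrial tRNA maturation and charging or other mitochondrially encoded RNAs. At 40 fL, replicate 1 was the highest for nuclear tRNA (147 CPM) but the lowest for the subunits (-0.11). At 45 fL, replicate 3 was the highest for the subunits (0.12) but not for nuclear tRNA (87.9 CPM, beside 90.0 in replicate 2). The part of these libraries in the results was not tested beyond leaving them out.

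Of 11 initiation factors tested with the repressor MAF1, 5 rose and 2 fell at 75 against 40 fL, beside 31% and 30.2% of all rows. The TFIIIC subunits TFC8 (1.68, from 16.1 ± 2.02 to 51.8 ± 3.07 CPM), TFC4 (1.61), TFC1 (1.07) and TFC3 (1.01) rose on the log2 scale, as did BRF1 of TFIIIB (0.45). TFC6 and TFC7, the other TFIIIC subunits on the list, did not pass in either direction. SPT15, the TATA-binding protein (-0.68), and PZF1, the 5S rRNA gene factor TFIIIA (-0.59), fell, and MAF1 did not pass (-0.13, adjusted p = 0.327). With library totals alone 4 rose and 5 fell.

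Of 6 RNA polymerase III transcripts tested other than tRNA, 3 rose and 0 fell at 75 against 40 fL, beside 31% and 30.2% of all rows. SCR1, the RNA of the signal recognition particle, rose from 13998 ± 223 to 21240 ± 868 CPM (SD, n = 3; log2 change 0.60, adjusted p = 0.000102). RPR1, the RNA of nuclear RNase P, rose from 977 ± 107 to 1450 ± 191 CPM (0.57, adjusted p = 0.000509). SNR6, the U6 spliceosomal RNA, rose from 5.04 ± 1.48 to 9.35 ± 2.04 CPM (0.89, adjusted p = 0.0234), a call that was lost without any of 4 single libraries at 40 or 75 fL. The guide RNA SNR52 (-0.35) and the 5S rRNA rows RDN5-1 (0.94) and RDN5-6 (0.90) did not pass. RDN5-2 had 1 count in 1 library, and RDN5-3 to RDN5-5 had none. With limma on TPM 0 rose and 1 fell.

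Of 14 tRNA end-processing genes 8 fell and 1 rose at 75 against 40 fL, where 30.2% of all rows fell and 31% rose. TRZ1, which cuts the 3′ trailer, changed by -1.12 (log2), POP6 of RNase P by -0.85, CCA1, which adds the CCA tail, by -0.74, and THG1, which adds a guanosine to histidine tRNA, by -0.58, while POP8 rose by 0.66. Against the same shares, base modification genes gave 38 falls and 5 rises among 54 tested, with a median of -0.66 beside -0.01 for all genes. MOD5, which modifies the base next to the anticodon, changed by -1.21, the methyltransferase TRM13 by -0.99 and the wybutosine enzyme TRM12 by -0.82. PCC1 (0.66), GON7 (0.77) and CGI121 (0.29), subunits of the KEOPS complex, were 3 of the 5 that rose, with ABP140 (0.43) and TAN1 (0.31). KAE1 and BUD32, the other KEOPS subunits on the list, did not pass as rises.

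Splicing and transport genes gave 4 rises and 4 falls among 12 at 75 against 40 fL, near the shares of all rows (31% and 30.2%). Subunits of one enzyme, the tRNA splicing endonuclease, moved in opposite directions: SEN34 rose by 1.31 (log2) and SEN54 by 0.47, while SEN2 changed by -0.56 and SEN15 by -0.91. The ligase TRL1 changed by -0.72, the import receptor MTR10 by -0.34, the phosphotransferase TPT1 by 0.67 and CEX1, which acts in tRNA export, by 0.65. Turnover genes gave 7 falls and 2 rises among 10, beside the same shares, and 1 rise without 40 fL replicate 1 or 3 or 75 fL replicate 2. XRN1, the cytoplasmic 5′ exonuclease of the rapid tRNA decay pathway, rose by 0.54 and MET22 by 0.23, while its nuclear partner in that pathway, RAT1, changed by -1.05, the exosome subunit RRP6 by -1.20 and the poly(A) polymerase PAP2 by -0.47.

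Cytosolic tRNA synthetases gave 9 rises and 0 falls among 22 at 75 against 40 fL, where 31% of all rows rose and 30.2% fell. At 50 against 40 fL they gave 3 rises and 10 falls, where 32.8% of all rows rose and 24.2% fell, and with single libraries left out 1 to 3 rises and 7 to 14 falls, the 1 without 50 fL replicate 3. SES1, for serine, rose from 589 ± 27.8 to 855 ± 29.6 CPM (SD, n = 3; log2 change 0.54), DED81, for asparagine, by 0.48, THS1, for threonine, by 0.35 and ILS1, for isoleucine, by 0.33. The direction at 75 against 40 fL rests on the scaling, since library totals alone gave 2 rises and 6 falls and limma on TPM 0 rises and 13 falls. Genes for mitochondrial tRNA maturation and charging gave 7 rises and 3 falls among 23, a share of rises near that of all rows (31%). RPM2, the protein of mitochondrial RNase P, rose by 0.97 and ISM1, the mitochondrial isoleucyl-tRNA synthetase, by 0.52, while the wobble-base modifiers MTO1 and MSS1 changed by -0.80 and -0.55. With library totals alone these became 2 rises and 9 falls.

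**Figure D5:**
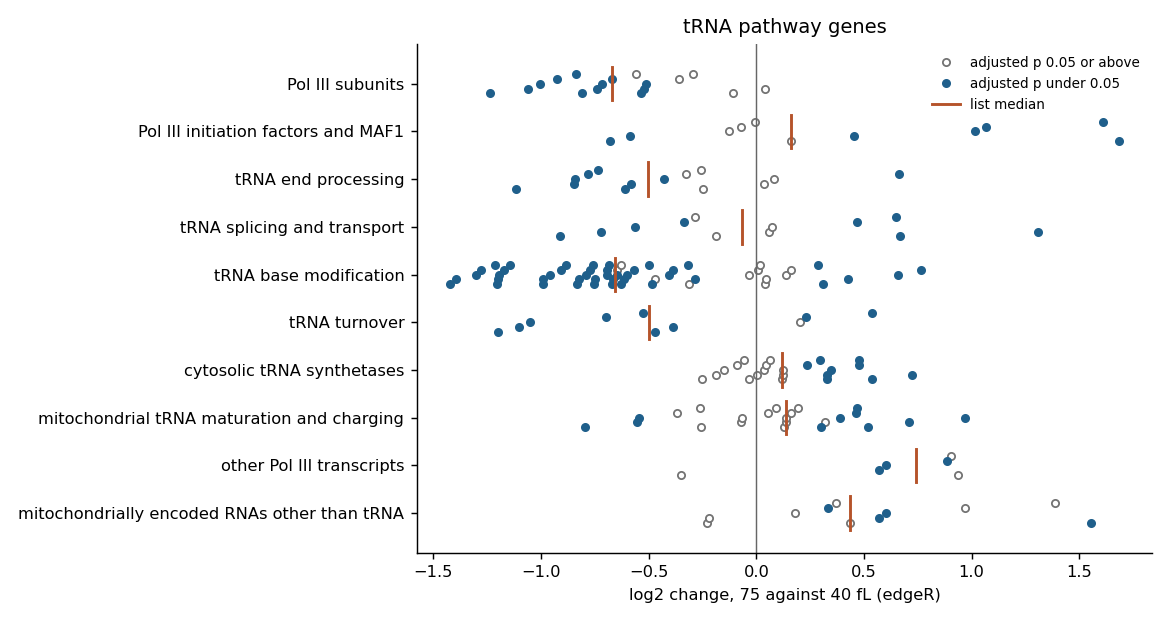
Log2 change at 75 against 40 fL (edgeR, horizontal axis) of each tested gene in 10 tRNA pathway lists (vertical axis), filled for an adjusted p under 0.05, with the list median as an orange line. RNA polymerase III subunits and base modification genes lie mostly left of 0 (medians -0.67 and -0.66), and the other RNA polymerase III transcripts mostly right of it (median 0.74).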

How the data were processed

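RNA was measured in 24 libraries of budding yeast pools. The authors deposited raw counts per feature, assigned with featureCounts of the Subread package on build R64, per the submitters' processing notes, and TPM that the authors made from them. Not given in the sources used here were the aligner, its version, and the handling of strand and of reads with several matches. Deposited TPM used spliced lengths for 166 of 166 placed tRNA rows with a computable length (within 0.6 bases). Libraries were grouped by the nearest 5 fL, and replicate numbers follow record order.

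Counts were tested with edgeR 4.0.16 in R 4.3.3 (quasi-likelihood F test, robust, TMM, filterByExpr with a minimum count of 10, all 24 libraries, 1 coefficient per size), once with single rows and once with tRNA rows replaced by their sums. A call is a Benjamini-Hochberg adjusted p under 0.05 over all rows tested. SE is |log2 change| over the root of F. The fit was tested on simulated data. Alternatives used DESeq2 1.42.0, limma 3.58.1 on log2(TPM + 1), other scalings, filters and rows, and each library left out.

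Sequences, positions and neighbours came from the RefSeq R64 genome, and rows were tied to loci by chromosome letter, amino acid, anticodon and, where needed, length. Members and lists were chosen with earlier results of these data known. Named were every sum, the 10 rows of highest mean CPM, up to 5 called rises and 5 falls, and up to 4 genes per list with the smallest adjusted p, plus members where a count was small. Genes named outside this rule (POP8, GON7, CGI121, ABP140, TAN1, SEN15, TRL1, MTR10, TPT1, MET22, BRF1, SPT15, PZF1, MAF1) were chosen after their values were seen. KAE1, BUD32, TFC6 and TFC7 were named to complete their complexes. No pair of replicates was a copy.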

Additional observations from a re-analysis of the deposited data

How the results depend on the processing

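No paired analysis was possible because the replicate numbers follow record order and pair nothing. The 5 libraries set apart in an earlier analysis of the same data were replicate 1 at 40 and at 70 fL, replicate 2 at 50 and at 55 fL, and replicate 3 at 45 fL. Calls of nuclear sums at 75 against 40 fL numbered 15 with RLE size factors, DESeq2 or no filter, 18 with library totals alone and 19 with limma on TPM. With only the rows that hold no repeated word, 0 sums passed over the 8 sizes, 1 at 75 against 40 fL and 0 at 50 against 40 fL, because no nuclear sum then had enough counts to be tested. At 75 against 60 fL, 3 sums passed without the 5 libraries and 1 without rows near coding genes, all as rises, and without the 5 libraries 1 nuclear sum also rose at 50 against 40 fL. Single rows called over the 8 sizes numbered 60 without a filter, 6 at a mean of at least 1 CPM and 72 with DESeq2, and at 75 against 40 fL 56 and 6 under those filters. The nuclear total at 75 against 40 fL changed by -1.14 with library totals, -1.29 with summed TPM and -1.12 without the 10 highest rows. The causes of these shifts other than fewer rows tested were not tested.

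Leaving out each library in turn gave 16 to 19 sums over the 8 sizes, 14 to 16 at 75 against 40 fL, 14 to 18 at 50 against 40 fL, 0 at 60 against 50 fL and 0 to 1 at 75 against 60 fL, the 1 without 50 fL replicate 2. It gave 25 to 39 single rows over the 8 sizes and 23 to 39 at 75 against 40 fL, 89 to 122 pathway genes, and totals of -0.94 to -0.74 (nuclear) and 0.05 to 1.22 (mitochondrial).

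Some small log2 changes turned direction. At 75 against 40 fL lysine went to -0.25 with library totals, -0.40 with limma on TPM, -0.82 without rows near coding genes and -0.74 without the 10 highest rows, and from -0.0882 to 0.168 with each library left out. Proline went to 0.20 without rows near coding genes (0.15 at 50 against 40 fL) and ranged from -0.22 to 0.0267. Mitochondrial serine went to 0.0218 with DESeq2 and 0.84 without the 5 libraries, and ranged from -1.10 to 0.84. At 50 against 40 fL, mitochondrial serine went to 0.76 and phenylalanine to 0.94 without the 5 libraries, with ranges of -0.67 to 0.52 and -0.95 to 0.59. tK(UUU)O went to 0.0614 and tI(UAU)D to 0.20 without the 5 libraries, with ranges of -0.29 to 0.0651 and -0.44 to 0.20. tW(CCA)G1 went to -0.0579 with library totals and -0.16 with limma on TPM. With limma on TPM, ILS1 went to -0.11, THS1 to -0.0901, COX1 to -0.11, COX2 to -0.0769, COX3 to -0.26 and ATP6 to -0.0430, and with library totals COX3 went to -0.0949. With each library left out 15S_RRNA ranged from -0.49 to 0.0311 and 21S_RRNA from -0.42 to 0.00849, both highest without 75 fL replicate 1. Depth limits single rows most, since 241 of 299 could not be tested.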
